A study of Mus musculus with 6 samples.

Results

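The Notch receptors (*Notch1* to *Notch4*), the ligands *Jag1*, *Jag2*, *Dll1* and *Dll4*, and the target genes *Hes1* and *Hey1* were described in mouse esophagus and stomach organoids. They were found by their gene names among the non-control probes of the arrays, which gave 10 genes and 13 probes of the 34298 gene names and 55681 probes measured. *Notch1*, *Notch2* and *Dll1* had 2 probes each, and every probe was kept. All 10 names are symbols in RefSeq (GRCm38.p6).

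Organoids of both tissues were grown from mice 1, 2 and 4, and their total RNA was hybridized to 6 single-color Agilent arrays, 3 per tissue. All 6 are labelled as controls and carry no labelled allele or added agent, and they were harvested on day 8, except for the stomach organoids of mouse 4, harvested on day 7. By the study's methods, stomach organoids were started from isolated glands of the corpus and fed WNT3A and R-spondin1 conditioned medium with gastrin. Esophageal organoids, by the same methods, were started from dissociated epithelial cells and fed a medium with forskolin and without WNT3A, R-spondin1 or gastrin. The sample titles do not name the medium, and the study also grew esophageal organoids with WNT3A and R-spondin1. Tissue, starting material and medium cannot be told apart here. The wild-type mice of the study were C57BL/6 females, and its methods give an adult age range for the mice without the age of mice 1, 2 and 4 themselves. Both kinds of organoid are epithelial cultures in Matrigel.

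Notch receptors are single-pass membrane proteins that are activated by ligands of the Jagged and Delta-like families on a neighboring cell. Ligand pulling opens the receptor to cleavage by an ADAM protease and then by gamma-secretase, and the freed intracellular domain enters the nucleus, joins the DNA-binding protein RBPJ and switches on genes such as those of the HES and HEY repressors. In stratified squamous epithelium the pathway is known for promoting the exit of basal cells into differentiation, and in the stomach for maintaining gland progenitors and restraining secretory fates.

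The values are log2 intensities after the authors' background correction and quantile normalization, and a difference is esophagus minus stomach. Every probe was tested with limma, and a probe was called at a Benjamini-Hochberg adjusted p under 0.05 over all 55681 probes. "Well above background" is the scanner software's flag for a spot whose signal exceeds background by the software's own margin. A probe printed in several spots was counted so when most of its spots carried the flag. With 3 arrays against 3, an exact permutation test of 1 gene cannot give a p below 0.1, so the fit across all probes was used, and the number of arrays limits its precision.

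The labelled tissues were checked against marker genes. Of 6 squamous markers, 5 were higher in the esophagus, and the brightest probe of *Trp63* was lower. All 10 gastric gland markers were higher in the stomach, and no esophagus array detected 8 of them well above background. None of the 6 endothelial, 6 fibroblast and 6 smooth muscle and pericyte markers passed the test. The endothelial markers *Cdh5* and *Emcn* and the mural markers *Pdgfrb*, *Rgs5*, *Myh11* and *Des* were well above background on none of the 6 arrays. For the other mural markers, *Acta2* was so on the array of esophagus 2 alone, where it read 6.69 against 4.74 to 4.97 on the other 5, and *Cspg4* on that of stomach 1 alone, where it read 5.10. Of the other endothelial markers, *Pecam1* and *Kdr* were so on all 6 arrays, *Tek* on 1 stomach array and *Tie1* on 1 esophagus array. Of 6 columnar markers, 5 were higher in the stomach. Of the 6 immune markers, *Cd68*, *Cd3e*, *Csf1r* and *Itgam* were well above background on all 6 arrays, and *Ptprc* on none. *Itgam* alone passed, toward the stomach, and the list had summed linear levels of 5530 to 30700 in the esophagus and 12300 to 17600 in the stomach. Fibroblast markers summed to 176 to 208 and 198 to 218, and none of them was well above background on every array of a tissue. Esophagus arrays had 45.5% to 47.3% and stomach arrays 46.7% to 51.1% of their non-control spots well above background, with 0 saturated.

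Esophageal organoids had higher levels of *Notch3*, *Jag1*, *Jag2* and *Dll1*, and stomach organoids had higher levels of *Notch4* and of *Notch1* by 1 of its probes. Of the 13 probes, 4 were called toward the esophagus and 2 toward the stomach, against a background of 5.94% and 6.22% of all probes. With any 1 array left out, 4 to 6 were called toward the esophagus and 0 to 1 toward the stomach, and with the slide as a block 0 were called toward the stomach. By gene, 4 of the 10 were called higher in the esophagus, 2 in the stomach and 4 in neither, where 7.88% and 8.33% of all gene names were called in these directions. This counts *Notch1* by 1 of its 2 probes, and with the probes of a gene averaged 1 gene was called toward the stomach. On 8 of the 13 probes every array was well above background, and these 8 held all 6 calls, while among the probes that at least 1 tissue showed well above background on each of its arrays 12.2% were called toward the esophagus and 12.9% toward the stomach. In 6 probes all esophagus arrays lay above all stomach arrays, and in 3 the order was the opposite, compared with 15.2% and 13.4% of the probes that had all 6 values. The remaining 4 probes overlapped between the tissues. At the threshold of the study's methods, taken as an unadjusted limma p under 0.05 and 1.5-fold, 6 member probes passed toward the esophagus and 3 toward the stomach, and of all probes 9.28% and 8.85% did. In bulk RNA such as this, fewer cells of a type and less RNA per cell cannot be told apart.

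**Figure D1:**
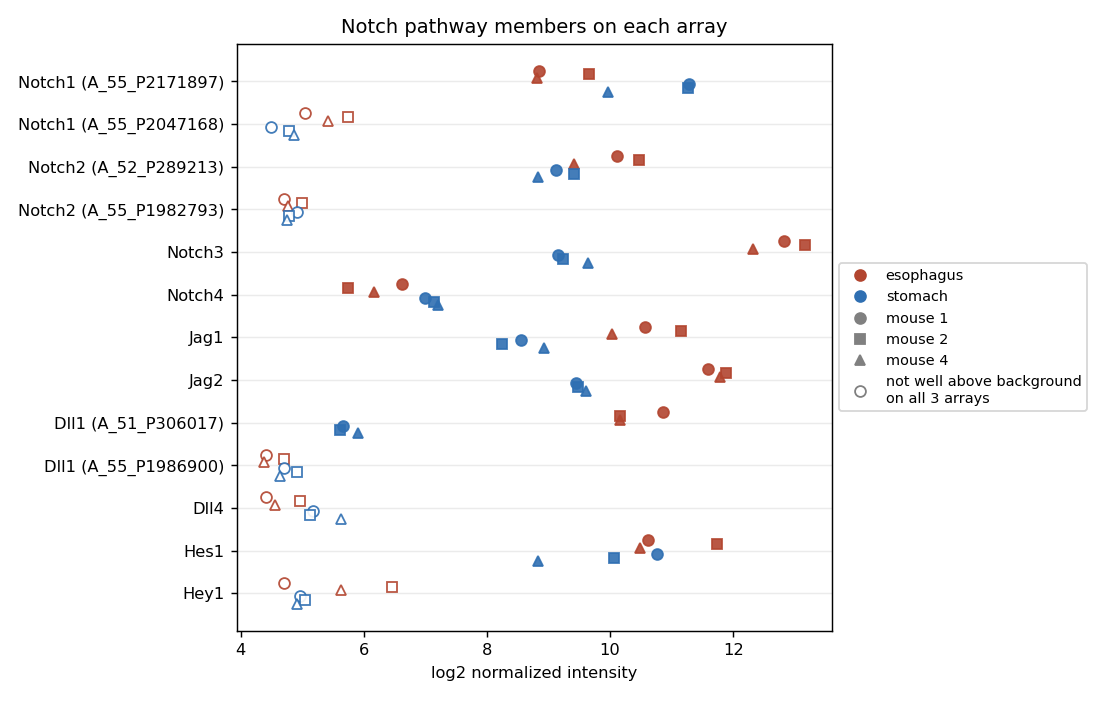
Log2 normalized intensity of the 13 member probes (rows) on each of the 6 arrays, with color for the tissue and shape for the mouse. Hollow symbols mark a tissue in which the probe was not well above background on all 3 arrays. The esophagus and stomach symbols of Notch3, Jag1, Jag2 and the first Dll1 probe lie apart, and those of Hes1 overlap.

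The probes that the main differences rest on are given here by sequence. They are 60 bases long, and coordinates are those of the scanner files (mm9). The *Notch1* and *Notch2* pairs are shown because the probes of a gene gave different results, and the other 4 because their tissue differences were the clearest. One probe of each pair is given whole, and of the rest the first 30 bases are given. The other *Notch2* probe is named by its position only.
Notch1 A_55_P2171897, chr2:26319440-26319499, minus strand: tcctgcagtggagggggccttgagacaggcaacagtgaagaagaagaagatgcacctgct
Notch1 A_55_P2047168, chr2:26314630-26314689, minus strand: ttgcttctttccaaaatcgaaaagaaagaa
Notch2 A_55_P1982793, chr3:97951233-97951292, plus strand: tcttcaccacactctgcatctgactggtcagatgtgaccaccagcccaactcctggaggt
Notch3 A_51_P220162, chr17:32257848-32257907, minus strand: gcctaatagaaatgtttttaggctgttttt
Jag1 A_52_P634090, chr2:136907433-136907492, minus strand: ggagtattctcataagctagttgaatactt
Jag2 A_51_P451338, chr12:114146887-114146946, minus strand: ttgtataaattattcaacggctgtcaggcg
Dll1 A_51_P306017, chr17:15504623-15504682, minus strand: gattactatgagccagtctttccttgaact

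*Notch3* (NM_008716) was the receptor with the largest tissue difference. This receptor is known from mural cells of arteries and also from suprabasal layers of squamous epithelium. Its log2 values were 12.83, 13.17 and 12.32 in the esophagus and 9.16, 9.24 and 9.64 in the stomach of mice 1, 2 and 4. Every esophagus array lay above every stomach array, and all 6 were well above background. The means were 12.77 ± 0.43 and 9.34 ± 0.26 (SD, n = 3 each), a difference of 3.43 on the log2 scale (standard error 0.25, 95% interval 2.86 to 4.0, limma adjusted p = 7.17e-05) or 10.8-fold. Beside it, the summed linear level of the 6 smooth muscle and pericyte markers was 156 to 244 in the esophagus and 164 to 171 in the stomach, and 5 of the 6 were well above background on none of the esophagus arrays. The sixth, *Acta2*, was so on the array of esophagus 2, which also had the highest *Notch3* value, and its part in that value was not tested.

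*Notch1* (NM_008714), the receptor best known from basal cells of squamous epithelium, was higher in the stomach on the probe that all 6 arrays detected. On A_55_P2171897 the values were 8.84, 9.66 and 8.81 in the esophagus and 11.29, 11.26 and 9.97 in the stomach of mice 1, 2 and 4. All stomach arrays were higher than all esophagus arrays, with the stomach array of mouse 4 nearest to them. The means were 9.10 ± 0.48 and 10.84 ± 0.75 (SD, n = 3 each), and the difference was -1.74 (standard error 0.39, 95% interval -2.66 to -0.82, limma adjusted p = 0.0263), or 3.34-fold higher in the stomach. This call was lost without the array of stomach 1 (-1.52, limma adjusted p = 0.113), stomach 2 (-1.53, limma adjusted p = 0.113), esophagus 1 (-1.61, limma adjusted p = 0.0681) or esophagus 4 (-1.60, limma adjusted p = 0.0694), always with the same sign.

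The other *Notch1* probe, A_55_P2047168, starts 4810 bases further along the gene in the direction of transcription. It read 5.04, 5.74 and 5.42 in the esophagus and 4.49, 4.79 and 4.87 in the stomach. It was well above background on 1 esophagus array and on no stomach array. Its difference was 0.68 (95% interval 0.19 to 1.18, limma adjusted p = 0.0853) and did not pass, and so close to background no fold is given. It passed in 3 of 12 alternative settings, among them background-subtracted intensity and 75th percentile scaling (2.14, limma adjusted p = 0.0122). The values of this probe lie too near background to set a direction against that of the brighter probe. From single cells of esophagus and stomach tissue, not organoids, the paper reports high *Notch1* levels in esophageal epithelial cells.

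*Notch2* (NM_010928), a receptor found in many epithelia, was not called. On A_52_P289213 (chr3:97953914-97953973, plus strand) its values were 10.11, 10.47 and 9.42 in the esophagus and 9.12, 9.41 and 8.83 in the stomach. The lowest esophagus value, of mouse 4, exceeded the highest stomach value, of mouse 2, by 0.01. The difference of 0.88 (standard error 0.28, 95% interval 0.22 to 1.54) missed the threshold (limma adjusted p = 0.0972). With the mouse as a block it passed (limma adjusted p = 0.0311), and without the array of esophagus 4 the difference was 1.17 (limma adjusted p = 0.0171). The second probe, A_55_P1982793, starts 2681 bases before the first. It was well above background on none of the 6 arrays (0.01, 95% interval -0.33 to 0.35, limma adjusted p = 0.981) and carries no fold.

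*Notch4* (NM_010929, chr17:34725120-34725179, plus strand), a receptor known mainly from endothelium, was higher in the stomach. It read 6.62, 5.75 and 6.17 in the esophagus and 6.99, 7.14 and 7.21 in the stomach, all well above background and without overlap. The stomach arrays lay close together and the esophagus arrays did not, with means of 7.11 ± 0.11 and 6.18 ± 0.43 (SD, n = 3 each). The difference of -0.93 (standard error 0.23, 95% interval -1.46 to -0.41, limma adjusted p = 0.0352) is 1.91-fold, and it was -1.57 with background-subtracted intensity and 75th percentile scaling (limma adjusted p = 0.0446). Of the 6 single arrays, only leaving out esophagus 1 kept the call (-1.15, limma adjusted p = 0.00954). Without stomach 1, 2 or 4 the limma adjusted p was 0.0976, 0.123 and 0.0807, without esophagus 2 or 4 it was 0.0826 and 0.0761, and with the mouse as a block it was 0.061. Endothelial markers summed to 518 to 729 in the esophagus and 579 to 596 in the stomach on the linear scale. *Kdr*, at log2 8.44 to 9.12, made up most of these sums, so they mainly follow 1 marker. The part of endothelial cells in the *Notch4* values was not tested.

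**Figure D2:**
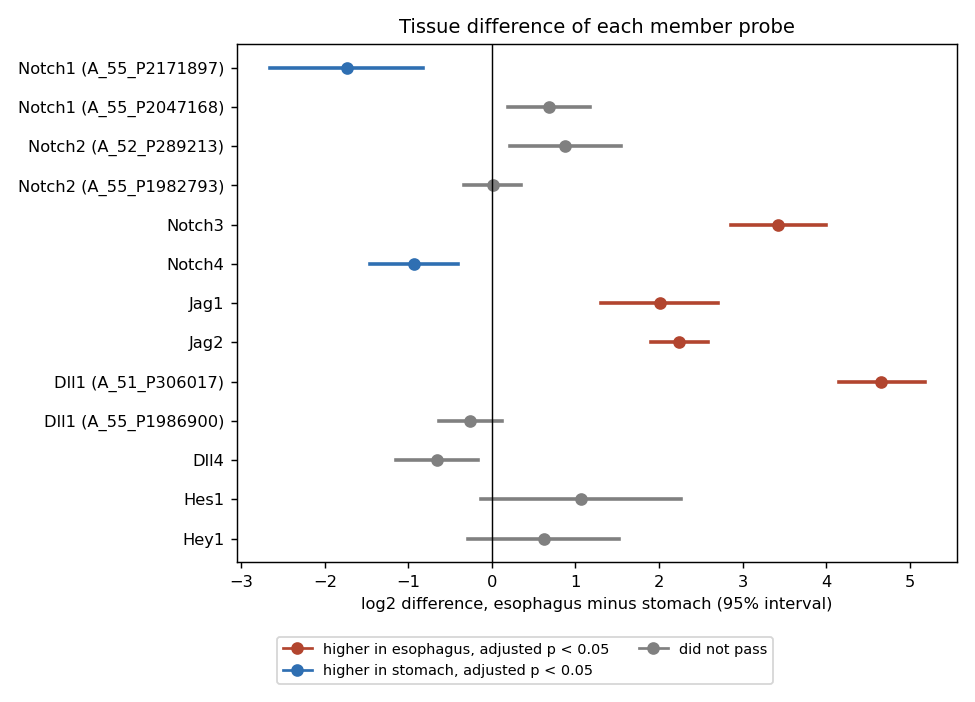
Log2 difference, esophagus minus stomach, of the 13 member probes (points) with its 95% interval (lines) from limma, colored by whether the adjusted p was under 0.05. Of the called probes, the intervals of Notch3, Jag1, Jag2 and the first Dll1 probe lie to the right of 0. Those of the first Notch1 probe and of Notch4 lie to the left. Without a call, the intervals of the second Notch1 probe and the first Notch2 probe also lie to the right, and that of Dll4 to the left.

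Among the ligands, *Dll1* (NM_007865), a Delta-like ligand, had the largest difference of all members. On A_51_P306017 its values were 10.86, 10.17 and 10.16 in the esophagus and 5.66, 5.62 and 5.91 in the stomach of mice 1, 2 and 4. The tissues lay far apart, and the stomach arrays were also well above background. The means were 10.39 ± 0.40 and 5.73 ± 0.16 (SD, n = 3 each), and the difference was 4.66 (standard error 0.22, 95% interval 4.15 to 5.18, limma adjusted p = 7.47e-06), or 25.4-fold.

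This *Dll1* probe was printed in 10 spots on each array, of which 1 was marked as an outlier and left out on each of the arrays of stomach 1 and stomach 2. Within an array the log2 values of its spots had an SD of 0.11 to 0.22. The highest spot on any stomach array read 6.19 and the lowest on any esophagus array 9.95. A second probe, A_55_P1986900, annotated to another transcript (ENSMUST00000143460.1) and starting 9103 bases away at chr17:15513726-15513785, rose well above background on none of the 6 arrays. It read 4.42, 4.71 and 4.38 in the esophagus and 4.71, 4.92 and 4.64 in the stomach, and the clear difference of the first probe was not seen at it (-0.26, 95% interval -0.63 to 0.12, limma adjusted p = 0.41).

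Both Jagged ligands were higher in esophageal organoids. *Jag2* (NM_010588) read 11.59, 11.89 and 11.78 in the esophagus and 9.44, 9.48 and 9.61 in the stomach. The arrays of each tissue lay within a narrow range, with means of 11.75 ± 0.15 and 9.51 ± 0.09 (SD, n = 3 each). The difference was 2.24 (standard error 0.15, 95% interval 1.90 to 2.59, limma adjusted p = 4.86e-05), or 4.73-fold.

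*Jag1* (NM_013822), which is itself a known target of Notch and WNT signaling in several tissues, read 10.57, 11.15 and 10.03 in the esophagus and 8.56, 8.24 and 8.93 in the stomach. The tissues did not overlap, although the arrays of both tissues spread more than those of *Jag2*, with means of 10.58 ± 0.56 and 8.58 ± 0.35 (SD, n = 3 each). The difference was 2.01 (standard error 0.30, 95% interval 1.30 to 2.71, limma adjusted p = 0.00409), or 4.02-fold. *Notch3*, *Jag1*, *Jag2* and *Dll1* kept their direction and an adjusted p under 0.05 in all 13 alternative settings. Their differences ran from 3.23 to 3.67 for *Notch3*, 1.72 to 2.28 for *Jag1*, 2.18 to 2.47 for *Jag2* and 3.93 to 5.65 for *Dll1*.

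*Dll4* (NM_019454, chr2:119160779-119160838, plus strand), the Delta-like ligand of sprouting vessels, was near background in both tissues. It read 4.42, 4.97 and 4.56 in the esophagus and 5.17, 5.12 and 5.63 in the stomach, and only 1 stomach array was well above background. The stomach arrays were the higher ones without overlap, but no fold is given so close to background, and the difference of -0.66 (95% interval -1.15 to -0.17) did not pass (limma adjusted p = 0.0963). It passed when background-subtracted intensity and 75th percentile scaling took the place of both the background correction and the quantile normalization (-1.57, limma adjusted p = 0.0396), and with a variance trend and robust variances together (-0.66, limma adjusted p = 0.0465).

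The 2 targets among the members did not pass. *Hes1* (NM_008235, chr16:30067820-30067879, plus strand), the repressor most widely used as a readout of the pathway, read 10.61, 11.74 and 10.49 in the esophagus and 10.76, 10.06 and 8.83 in the stomach of mice 1, 2 and 4. The tissues overlapped because the stomach array of mouse 1 lay above 2 of the 3 esophagus arrays. The difference was 1.07 (standard error 0.51, limma adjusted p = 0.267) with a 95% interval of -0.13 to 2.26 that includes 0. Within a mouse the differences were -0.15, 1.68 and 1.67, and none of the 13 alternative settings called *Hes1* (0.54 to 1.5).

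*Hey1* (NM_010423, chr3:8663432-8663491, minus strand), the second repressor, read 4.71, 6.46 and 5.63 in the esophagus and 4.97, 5.05 and 4.92 in the stomach. It was well above background on 1 esophagus array only, that of the highest value, which came from mouse 2. The difference of 0.62 (95% interval -0.28 to 1.52, limma adjusted p = 0.404) did not pass, and it passed without the array of esophagus 1, the lowest of all 6 (1.06, limma adjusted p = 0.0411). With background-subtracted intensity and 75th percentile scaling it was 2.0 (limma adjusted p = 0.165).

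The order of the arrays within a tissue was also read. Over the 8 member probes well above background on all arrays, the array of esophagus 2 was the highest esophagus array in 6 and that of esophagus 4, the only array on the second slide, the lowest in 6. In the stomach, the array of mouse 4, harvested a day before the others, was the highest in 5 and the lowest in 3, which were *Notch1*, *Notch2* and *Hes1*. Of 7 markers of suprabasal squamous cells, 5 were called higher in the esophagus and 1 lower, and their summed linear level was 106000 to 316000 there and 1300 to 1550 in the stomach. *Lor*, *Sbsn*, *Krt4* and *Krt13* were also highest on the array of esophagus 2 and lowest on that of esophagus 4, *Krt10* was lowest on the latter only, and *Ivl* and *Krt1* had other orders. *Lor*, a cornified envelope protein, read 14.44, 16.94 and 10.38 in the esophagus of mice 1, 2 and 4, *Sbsn* read 14.87, 15.39 and 13.18, and *Krt4* read 13.55, 14.67 and 12.73. The part of suprabasal cells in the member values was not tested, and the second slide and the array of esophagus 4 cannot be told apart. Proliferation markers, with none of 5 called, summed to 25500 to 61900 in the esophagus and 38300 to 41700 in the stomach.

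Within each mouse, the esophagus organoids differed from the stomach organoids in the same direction for 10 of the 13 probes, some of them near background, and 43.7% of all probes with 6 values had 1 sign in all 3 mice. For *Dll1* the log2 differences were 5.20, 4.55 and 4.24 in mice 1, 2 and 4, and for *Jag2* they were 2.15, 2.41 and 2.17. *Jag1* varied more, at 2.01, 2.91 and 1.1, and *Notch3* differed by 3.68, 3.94 and 2.68. For *Notch1* (A_55_P2171897) the differences were -2.45, -1.61 and -1.16, and for *Notch4* -0.37, -1.39 and -1.04. The 3 mice were in accord on the sign of 7 of the 8 brighter probes, and *Hes1* was the exception.

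**Figure D3:**
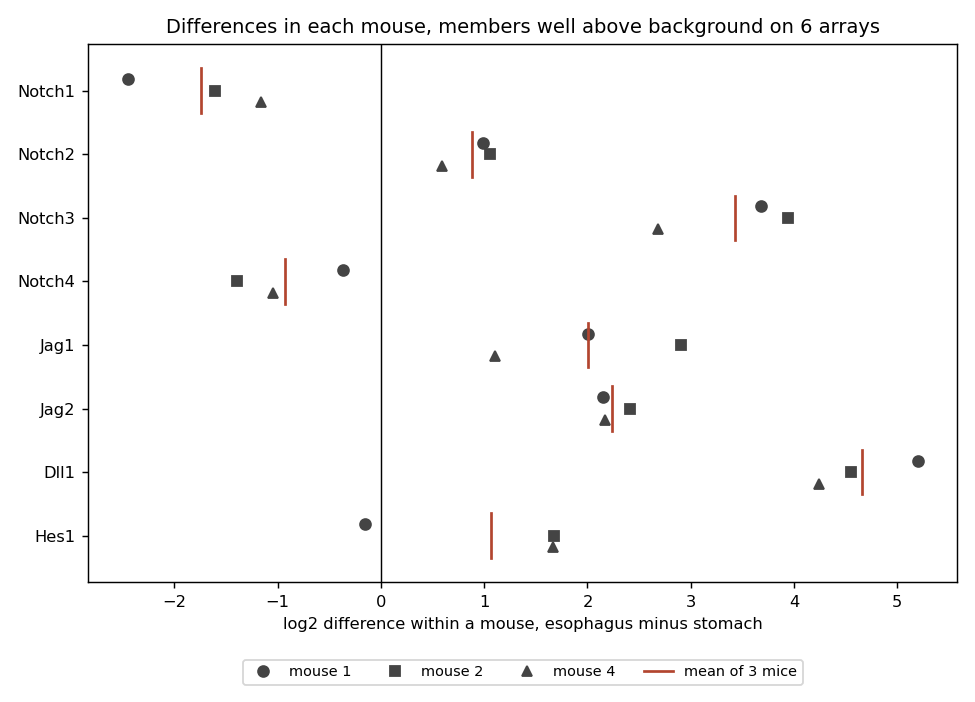
Log2 difference between the esophagus and stomach organoids of each mouse (symbols) and the mean of the 3 mice (vertical line) for the 8 member probes well above background on all 6 arrays. All symbols of a gene lie on the same side of 0 except for Hes1, where mouse 1 is at -0.15.

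The rest of the pathway was described from 7 lists of 67 genes, of which 66 were measured, each by its brightest probe. At a limma adjusted p under 0.05, 9 genes were higher in the esophagus, 9 in the stomach and 48 did not pass. Over all gene names, 7.15% and 7.70% were called in these directions by their brightest probe. Most of the pathway genes were well above background on every array of at least 1 tissue. Among all probes so detected, 12.2% were called toward the esophagus and 12.9% toward the stomach. The median log2 difference was 0.03 over the pathway genes and 0.03 over all genes. Of the 18 called genes, 8 passed with each array left out in turn, *Dlk2*, *Dtx4*, *Neurl3*, *Adam10*, *Tle4*, *Maml1*, *Nrarp* and *Hes6*, and 10 fell short without at least 1. Without stomach 1 or stomach 2 the counts were 4 and 4, and without esophagus 2 they were 5 and 5. With the mouse as a replicate block they were 6 and 6, and *Dtx3l*, *Neurl1b*, *Crebbp*, *Tle1*, *Dll3* and *Aph1a* were among those that fell short (limma adjusted p = 0.0501, 0.0675, 0.0526, 0.07, 0.0591 and 0.0983).

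**Figure D4:**
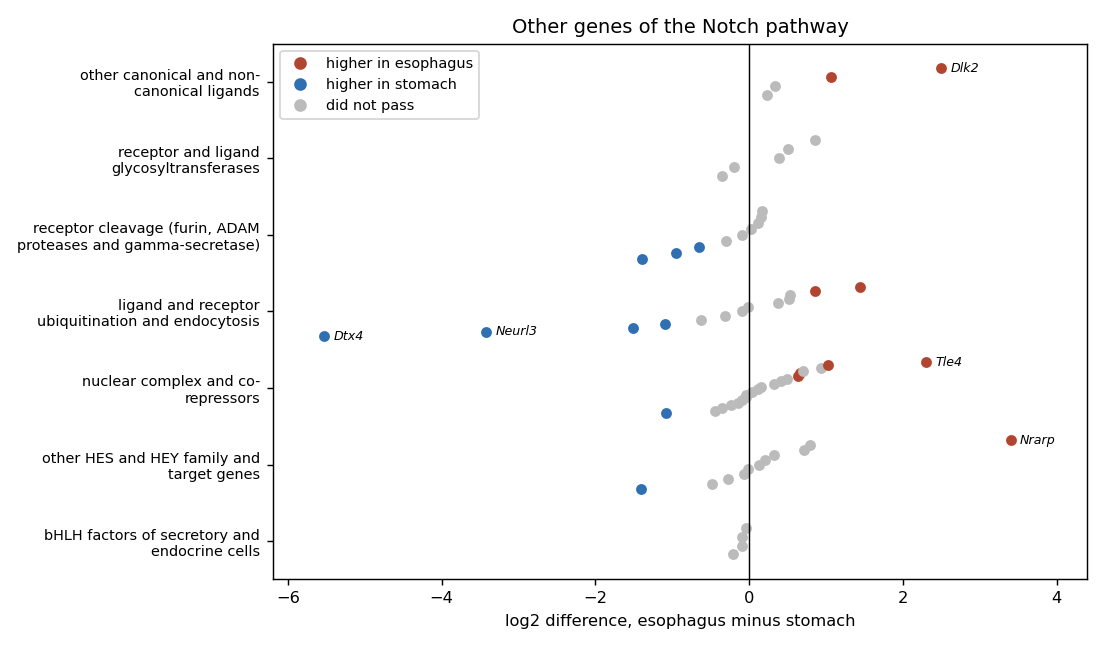
Log2 difference, esophagus minus stomach, of 66 other Notch pathway genes (points) in 7 lists (rows), colored by whether the limma adjusted p was under 0.05, with the largest differences named. Most genes lie near 0 and did not pass, while Nrarp, Dlk2 and Tle4 lie to the right and Dtx4 and Neurl3 to the left.

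Of the 4 other ligands, 2 were higher in the esophagus and 2 did not pass, with a median of 0.71. *Dlk2*, a Delta-like protein without the domain that activates the receptor, read 10.67, 10.06 and 10.79 in the esophagus and 7.78, 7.82 and 8.40 in the stomach. Its difference was 2.50 (standard error 0.25, limma adjusted p = 0.000499), and a second probe gave 2.89 (limma adjusted p = 0.000337). *Dll3*, a divergent Delta-like protein that does not activate receptors on other cells, differed by 1.07 (limma adjusted p = 0.0214) at levels close to background in the stomach, where 1 of 3 arrays was well above it. *Dll3* fell short without stomach 1, stomach 2, esophagus 1 or esophagus 2 (limma adjusted p = 0.0532 to 0.0996) and with an offset of 50 on mean intensities (0.60, limma adjusted p = 0.0507). With background-subtracted intensity and 75th percentile scaling its difference was 2.68 (limma adjusted p = 0.0143).

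None of the 5 glycosyltransferases, which modify the receptors and set their response to each ligand family, passed, with a median of 0.39. *Lfng* read 9.15, 9.21 and 9.09 in the esophagus and 7.63, 7.82 and 9.43 in the stomach, where only the array of mouse 4 exceeded the esophagus.

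Of 9 genes measured for receptor cleavage, 3 were called, each toward the stomach, with a median of -0.10. *Adam10*, the protease of the ligand-dependent cut, read 11.80, 11.96 and 11.67 in the esophagus and 12.74, 12.59 and 12.94 in the stomach. Its difference was -0.95 (standard error 0.16, limma adjusted p = 0.00722), and it did not pass with background-subtracted intensity and 75th percentile scaling (-0.67, limma adjusted p = 0.238). Of the gamma-secretase subunits, the catalytic *Psen2* differed by -1.40 (standard error 0.30, limma adjusted p = 0.0198) and *Aph1a* by -0.65 (standard error 0.17, limma adjusted p = 0.0439). *Psen2* fell short without stomach 1 (limma adjusted p = 0.0935), stomach 2 (limma adjusted p = 0.0699) or esophagus 2 (limma adjusted p = 0.0562), and *Aph1a* fell short without any 1 of the arrays, with limma adjusted p up to 0.169. A second *Aph1a* probe was not called (-0.29, limma adjusted p = 0.323).

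The list of 13 ubiquitin ligases and endocytic regulators, which prepare ligands and receptors at the membrane, had 2 genes higher in the esophagus, 4 in the stomach and 7 that did not pass, with a median of -0.09. *Dtx4*, a Deltex ubiquitin ligase, read 6.0, 5.21 and 5.09 in the esophagus, where 1 array was well above background, and 10.85, 11.09 and 10.95 in the stomach. The fitted difference, which rests on esophagus values near background, was -5.53 (standard error 0.25, limma adjusted p = 5.46e-06). It was called in all 13 alternative settings, where it ran from -7.37 with background-subtracted intensity and 75th percentile scaling to -4.66 with an offset of 50 on mean intensities, and no fold is given since only 1 esophagus array detected it. *Neurl3*, a Neuralized-like ubiquitin ligase, was detected well above background in the stomach alone, at least 9.28-fold above the esophagus with the deposited values (limma adjusted p = 8.58e-06). It was called in all 13 alternative settings. Its fitted difference of -3.42 ran from -6.22 with background-subtracted intensity and 75th percentile scaling to -2.39 with an offset of 50 on mean intensities. The ligases *Mib2* (-1.51, limma adjusted p = 0.0131) and *Dtx3l* (-1.09, limma adjusted p = 0.0192) were also higher in the stomach, and *Dtx2* (1.44, limma adjusted p = 0.0153) and *Neurl1b* (0.86, limma adjusted p = 0.0389) in the esophagus. All 4 of these fell short without stomach 1, at limma adjusted p of 0.0502, 0.0921, 0.0742 and 0.139, and without stomach 2, at 0.0637, 0.084, 0.0663 and 0.129. *Dtx3l* and *Neurl1b* also fell short without esophagus 1 (limma adjusted p = 0.0515 and 0.0519) or esophagus 2 (0.069 and 0.124), and *Neurl1b* without esophagus 4 (0.0818). Dimmer probes of *Dtx2* (0.32, limma adjusted p = 0.364), *Neurl1b* (0.12, limma adjusted p = 0.804) and *Neurl3* (-0.22, limma adjusted p = 0.713) were not called. Other *Dtx3l* probes gave -0.35 and -0.29 (limma adjusted p = 0.255 and 0.431). None of these dimmer probes was well above background on any esophagus array.

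Of the 20 genes of the nuclear complex and its co-repressors, 4 were higher in the esophagus, 1 in the stomach and 15 did not pass, with a median of 0.13. *Rbpj* itself, the DNA-binding partner of the receptor, read 9.71, 8.75 and 9.07 in the esophagus and 9.30, 9.26 and 9.10 in the stomach. The tissues overlapped, and the difference was -0.04 with a 95% interval of -0.61 to 0.53 (limma adjusted p = 0.945). *Maml1*, the co-activator that completes the complex, was higher in the esophagus by 1.03 (standard error 0.15, limma adjusted p = 0.00306). The Groucho co-repressor *Tle4* read 7.11, 8.52 and 7.70 in the esophagus and 5.30, 5.19 and 5.94 in the stomach, a difference of 2.30 (standard error 0.36, limma adjusted p = 0.00502) that ran from 1.70 with an offset of 50 on mean intensities to 3.48 with background-subtracted intensity and 75th percentile scaling. Its second probe gave 1.16 and just missed the threshold (limma adjusted p = 0.0547).

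Smaller differences in the same list lost their calls when single arrays were left out, with the same sign throughout. *Tle1*, another Groucho co-repressor, differed by 0.63 (limma adjusted p = 0.024) and fell short without stomach 1, stomach 2, esophagus 1 or esophagus 2 (limma adjusted p = 0.0551 to 0.0994), while its difference stayed between 0.58 and 0.67. The acetyltransferase *Crebbp* was higher in the stomach by its brightest probe (-1.08, limma adjusted p = 0.0416). It passed only without stomach 4, with limma adjusted p up to 0.163 otherwise and differences of -1.41 to -0.86, and its second probe was not called (0.24, limma adjusted p = 0.436).

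Of the 11 further HES, HEY and target genes, 1 was higher in the esophagus, 1 in the stomach and 9 did not pass, with a median of 0.13. *Nrarp*, a target of the pathway that feeds back on the receptor complex, read 10.39, 11.03 and 10.13 in the esophagus and 7.01, 6.89 and 7.46 in the stomach. The tissues lay apart by 3.40 (standard error 0.27, limma adjusted p = 0.000115) or 10.5-fold, and the difference ran from 3.02 to 3.62 over the alternative settings, all of which called it. *Hes6*, a HES family member known to oppose HES1, read 9.28, 8.99 and 9.54 in the esophagus and 10.48, 10.79 and 10.77 in the stomach, a difference of -1.41 (standard error 0.19, limma adjusted p = 0.00213). *Hes5* was well above background on a single array, that of esophagus 2 at 6.41, the same array on which *Hey1* was highest. *Hey2* and *Heyl* were not well above background on any array.

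None of the 4 bHLH factors of secretory and endocrine cells, which HES proteins are known to repress, was well above background on every array of either tissue or passed the test, with a median of -0.09. *Neurog3* was well above background on 2 stomach arrays.

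Over the 6 arrays and 17699 candidate probes well above background on all of them, the genes with values most like those of *Dll1* were *Wnt4*, a secreted WNT ligand (r = 0.9996), *S100a16*, a calcium-binding protein (r = 0.9991), and the kinase gene *Mast4* (r = 0.999). Those most like *Notch1* (A_55_P2171897) were the desmosomal cadherin *Dsg2* (r = 0.9967), *Pnma2* (r = 0.9953) and the BH3-only gene *Bmf* (r = 0.9948). The 6 points fall into the 2 tissues and share the arrays' normalization, so these values of Pearson's r describe likeness and were not tested.

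RBPJ is known to bind a core of TGGGAA. In the RefSeq table of promoter windows (GRCm38.p6), each 300 bases long with 250 before and 50 after the start of a gene, 8 of the 10 members had 9 windows, and neither *Hes1* nor *Hey1* had an entry. These 6 letters occurred on either strand in 0 of the 9 windows, and in 8397 of all 32851 windows, or 25.6%. The 9 windows belong to receptors and ligands only, are few, and were not tested against that share.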

How the data were processed

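The authors labeled total RNA with Cy3 and read the arrays with Agilent Feature Extraction (11.5.1.1, probe coordinates in mm9). The deposited scanner files hold raw spot intensity values, background intensity values and flags. The deposited log2 table was background corrected and quantile normalized by the authors, and normexp with an offset of 15 on median intensities plus quantile normalization gave the same log2 values within 0.0726. Its 2029 empty cells are outlier-marked spots.

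These log2 values were averaged over the spots of a probe and compared between tissues in R 4.3.3 with limma 3.58.1 (lmFit and eBayes, no block, Benjamini-Hochberg over 55681 probes). The methods' threshold (p under 0.05 and 1.5-fold) and other normalizations, blocks and left-out arrays were alternatives. A fold bound sets the bright tissue against the lowest signal well above background on each array of the dim one. Genes named were all member probes, *Rbpj* and, per list, up to 4 called genes in each direction with the largest difference, and 1 of these is not reported here. *Lfng*, *Hes5*, *Hey2*, *Heyl*, *Neurog3* and the markers were named after their values were seen. The mouse numbers mark the animal. Deviations from the tissue means correlated within a mouse with r = 0.025, 0.012 and -0.008. The code was tested on simulated data. The members and all lists were chosen with earlier results of these data known. Replicates are separate mice.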

Additional observations from a re-analysis of the deposited data

How the results depend on the processing

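*Notch3*, *Jag1*, *Jag2* and *Dll1* (A_51_P306017) kept direction and call under each alternative run, and no called result changed sign. Results that were not called and lay near 0 changed sign in some settings, among them the second *Dll1* probe (0.21 with background-subtracted intensity and 75th percentile scaling), the second *Notch2* probe (-0.07 without esophagus 2) and *Rbpj* (0.17 without esophagus 2). The stomach calls did not, and 1 was called with an offset of 50 on mean intensities (*Notch4*), 1 with the mouse as a replicate block (*Notch1*), 1 gene with the probes of a gene averaged, and 0 with the slide as a block, which has only esophagus 4 on slide 2 and so equals leaving it out. With the offset of 50, *Notch1* (A_55_P2171897) gave -1.64 (limma adjusted p = 0.0645). With background-subtracted intensity and 75th percentile scaling, which replaced the background correction and the normalization together and moved the median of all probes from 0.02 to 0.19, the second *Notch1* probe gave 2.14 (limma adjusted p = 0.0122), *Dll4* -1.57 (limma adjusted p = 0.0396), 5 pathway genes were called higher in the stomach and the pathway median was 0.21. In the paired fit with the mouse as a replicate block, *Notch2* gave 0.88 (limma adjusted p = 0.0311) and *Notch4* -0.93 (limma adjusted p = 0.061), and no other member call changed. With the slide as a block, *Notch1* gave -1.60 (limma adjusted p = 0.0694), *Notch2* 1.17 (limma adjusted p = 0.0171) and *Notch4* -0.93 (limma adjusted p = 0.0761). With a variance trend and robust variances, the second *Notch1* probe gave 0.68 (limma adjusted p = 0.0433) and *Dll4* -0.66 (limma adjusted p = 0.0465). The cause of these changes was not tested.

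With each array left out in turn, calls toward the esophagus numbered 4 to 6 member probes and 4 to 6 member genes, and calls toward the stomach 0 to 1 probes and 0 to 1 genes. The differences ran from -2.17 to -1.52 and from 0.51 to 0.86 for the 2 *Notch1* probes, from 0.64 to 1.17 for *Notch2*, from -1.15 to -0.72 for *Notch4* and from 0.19 to 1.06 for *Hey1*. Of the pathway genes, 4 to 10 were called toward the esophagus and 4 to 9 toward the stomach, and their median ran from -0.04 to 0.10. Probes not well above background limit *Hey1*, *Dll4* and the second probes of *Notch1*, *Notch2* and *Dll1*.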
